A study of Mus musculus with 8 samples.

Results

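The genes described here are 5 of the 22200 genes in the table. They are Penk1 (annotated as Penk), which encodes the opioid neuropeptide precursor proenkephalin, and Stmn2, Dnm1, Ctxn1 and Slc1a3, which are best known from nervous tissue. They were picked for their fall after 72 h of retinoic acid (RA), so their levels at 72 h are given as a description without a test. All 5 passed the filter on low values. The cells were immortalised mouse embryonic fibroblasts (MEFs) of genotype TAF4-/- on the C57BL/6 background, and this genotype was shared by every library. Per the study's methods, such cells were derived by Cre deletion of the floxed allele in a Taf4 lox/- line, so they stand for 1 cell line. TAF4 is part of TFIID, which assembles at promoters with RNA polymerase II, and RA is the ligand of the nuclear retinoic acid receptors. The series compared 3 groups: 3 libraries of untreated cells labelled 12 h, 3 of cells after 12 h of RA, and 2 of cells after 72 h of RA. No untreated 72 h library was analysed here, so treatment and time in culture cannot be told apart at 72 h.

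The 5 proteins have different roles. Proenkephalin is cut by prohormone convertases into enkephalins, which act on opioid receptors, and it is made in neurons, adrenal chromaffin cells and some mesenchymal cells. Stathmins bind tubulin dimers and destabilise microtubules, and Stmn2 (SCG10) is the form found in growth cones of neurons. Dynamin 1, encoded by Dnm1, is the neuronal form of the GTPase that pinches clathrin-coated vesicles from the membrane. Ctxn1 encodes cortexin 1, a small membrane protein of cortical neurons. Slc1a3 encodes the glutamate and aspartate transporter GLAST (EAAT1), which in brain marks astroglia and radial glia rather than neurons.

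In the annotation of the mm9 assembly (GENCODE vM1), the identifiers of the table placed Penk1 (ENSMUSG00000045573) at chr4:4060678-4065966 on the minus strand and Stmn2 (ENSMUSG00000027500) at chr3:8509527-8561604 on the plus strand. Dnm1 (ENSMUSG00000026825) lies at chr2:32163991-32208849, Ctxn1 (ENSMUSG00000048644) at chr8:4257648-4259274 and Slc1a3 (ENSMUSG00000005360) at chr15:8584124-8660764, all on the minus strand. The values are totals per gene. RefSeq promoter windows on GRCm38.p6 were at hand for 3 of the 5 genes, Dnm1, Ctxn1 and Slc1a3. They are shown because these genes share a direction but not a time course. Each window holds 300 bases, 250 before the start site and 50 from it on, at chr2:32353280-32353579 for Dnm1, chr8:4259225-4259524 for Ctxn1 and chr15:8710758-8711057 for Slc1a3, written 5′ to 3′ on the gene's strand. Capitals mark the motif matches found.
Dnm1: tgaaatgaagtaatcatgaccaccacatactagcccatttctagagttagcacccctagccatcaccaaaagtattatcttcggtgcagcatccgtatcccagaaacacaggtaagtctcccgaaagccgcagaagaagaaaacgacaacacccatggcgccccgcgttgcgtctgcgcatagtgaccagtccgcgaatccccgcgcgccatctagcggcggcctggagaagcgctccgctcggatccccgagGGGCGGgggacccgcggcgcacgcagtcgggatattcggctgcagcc
Ctxn1: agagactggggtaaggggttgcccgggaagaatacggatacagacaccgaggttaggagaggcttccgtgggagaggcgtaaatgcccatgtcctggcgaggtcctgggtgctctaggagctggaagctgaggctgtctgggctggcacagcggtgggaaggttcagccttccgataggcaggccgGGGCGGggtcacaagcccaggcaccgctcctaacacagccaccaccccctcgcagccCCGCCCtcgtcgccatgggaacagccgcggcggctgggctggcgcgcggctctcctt
Slc1a3: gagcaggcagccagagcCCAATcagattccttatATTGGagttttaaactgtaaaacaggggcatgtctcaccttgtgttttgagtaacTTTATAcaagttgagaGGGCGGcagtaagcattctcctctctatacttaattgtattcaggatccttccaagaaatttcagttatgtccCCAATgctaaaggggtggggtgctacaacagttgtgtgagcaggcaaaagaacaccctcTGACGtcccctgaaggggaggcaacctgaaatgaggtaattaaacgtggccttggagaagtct
The windows differ in base composition. That of Dnm1 has 59% G and C with 28 CpG dinucleotides and that of Ctxn1 66.3% with 21, while that of Slc1a3 has 45.3% with 3. The medians over all 32851 promoters of the table are 52.7% and 7. Motifs were searched on both strands. The GC box GGGCGG, present in 35.7% of all promoters, lies at bases 4 to 9 after the start of Dnm1, at -64 to -59 and, on the other strand, at -7 to -2 of Ctxn1, and at -145 to -140 of Slc1a3. The Slc1a3 window also holds the CRE half-site TGACG at -13 to -9 (20.8% of promoters), which is contained in the full CRE, the CCAAT letters at 3 places (37.4%) and the letters TATAAA on the other strand (13.6%). The nuclear receptor half-site AGGTCA (16.3% of promoters), the AP-1 site TGANTCA (7.81%), the full CRE TGACGTCA (1.79%), the left RE1 half-site TTCAGCACC (0.371%) and the right RE1 half-site (0.137%) were in none of the 3 windows. A match is a description of letters, not of a bound site.

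Levels are in quantile-normalised reads, a scale on which each library has the same total of 9442019, a lowest value of 1 and a median of 20.75. Depth per library is lost in it. The sources used here do not say that replicates came from separate cultures, so p-values measure the spread between these libraries, which may be technical. The libraries responded to RA: Cyp26b1, which encodes an RA-degrading enzyme, was called higher at 12 h (log2 change 5.99 ± 0.20 SE) and at 72 h (6.51 ± 0.23). Within groups, 50.1% of the variance lay along 1 axis. Positions on it are centred within each group, so each group has libraries on both sides by construction. The libraries numbered 3 of untreated, 1 and 2 of RA 12 h and 1 of RA 72 h lay on one side, and the remaining 4 on the other. The side of untreated replicate 3 also held the highest estimates of background reads along gene bodies. These were 132 to 150 reads per Mb, against 71.9 to 105 on the other side. The part of this background in the axis was not tested. Each member's change was also taken within each side, from 1 or 2 libraries per group and without a test. It is given for the side of the other 4 libraries first. Taf4a read between 984 and 1449 in the 8 libraries, and a total per gene does not check a deletion of exons. Titles carry cl1, which resembles the name of the line that still has TAF4; the genotype label was followed.

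After 12 h of RA, 3 of the 5 genes were called lower: Penk1, Slc1a3 and Stmn2. A call meant an adjusted p below 0.05 and a change of at least 2-fold, and the background rate was 0.308% of the 12673 genes tested. Calls of higher genes took 1.11% at 12 h, and calls in either direction 1.42%. These 3 were also the genes whose RA 12 h values lay wholly below the untreated values (background 10.6%). Dnm1 and Ctxn1 overlapped between the groups at 12 h and did not pass the test. At 72 h all 5 genes were at least 2-fold below the untreated mean (background 1.77%) without overlap (background 19.4%), which is what they were picked for. Over all genes at 72 h, 1.52% were called lower, 2.15% higher and 3.67% either way. Between 12 h and 72 h of RA, 3 genes, Penk1, Stmn2 and Dnm1, were lower still by at least 2-fold (background 1%) and without overlap (background 19.2%). The genes were picked on the 72 h libraries, so this count is also only a description and not a separate finding. For 72 h against 12 h, 0.734% of all genes were called lower, 0.765% higher and 1.5% either way. Ctxn1 was lower by less, and Slc1a3 was not lower. The comparison at 12 h shares its untreated libraries with the comparison the genes were picked on, so it is not fully separate from that choice.

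**Figure D1:**
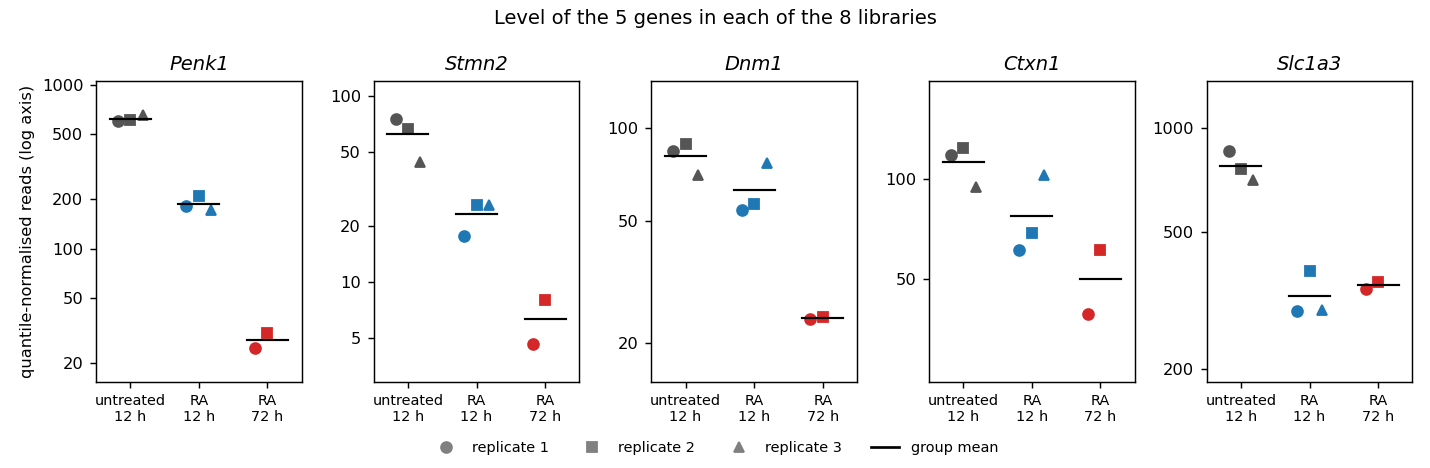
Quantile-normalised reads of each gene (log axis, a separate range per panel) in the 8 libraries, by group on the horizontal axis, with symbols for replicates and a bar for the group mean. Penk1 steps down from 621 to 188 and 27.8, while Slc1a3 stands at 777, 325 and 350.

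Penk1 read 601, 606 and 658 in the untreated libraries, 181, 210 and 171 after 12 h of RA, and 24.8 and 30.8 after 72 h. The 3 groups were separate, each below the one before, with means of 621 ± 31.5 (SD, n = 3), 188 ± 20.3 (n = 3) and 27.8 ± 4.24 (n = 2). The untreated mean was 3.31 times the RA 12 h mean and 22.4 times the RA 72 h mean. At 12 h Penk1 fell by 1.73 on the log2 scale (SE 0.13, 95% interval -2.02 to -1.44, limma adjusted p = 3.95e-06). At 72 h its log2 difference from untreated cells was -4.44 ± 0.15 SE, the lowest of all genes tested, and from RA 12 h it was -2.72 ± 0.15. Within the sides of the axis the 12 h difference was -1.81 and -1.75. A lincRNA, A830012C17Rik, overlaps Penk1 on the other strand and is not analysed here; the counting is not stated to use strand, so its reads could be among those of Penk1.

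Stmn2 gave 75.4, 66.9 and 44.3 reads in untreated cells, 17.6, 25.8 and 25.8 at 12 h of RA, and 4.63 and 8 at 72 h. These groups were separate too, at a far lower place on the scale, with means of 62.2 ± 16.1, 23.0 ± 4.69 and 6.31 ± 2.39 (SD, n = 3, 3 and 2). Its 12 h fall of 1.38 on the log2 scale (SE 0.29, interval -2.01 to -0.75) passed with a limma adjusted p of 0.0145. The call did not hold without untreated replicate 1 (-1.23, limma adjusted p = 0.111), untreated replicate 2 (-1.31, 0.0600) or RA 12 h replicate 1 (-1.21, 0.0916). Within the sides of the axis the 12 h difference was -1.43 and -1.02. The call was lost as well when no filter on low values was applied (-1.38, limma adjusted p = 0.0546) and when an estimate of background reads along gene bodies was subtracted (-1.71, limma adjusted p = 0.166). At 72 h the log2 difference of Stmn2 was -3.12 ± 0.33 SE against untreated, a ratio of means of 9.85, and -1.74 ± 0.33 against RA 12 h. That background estimate, taken from 943 long genes, came to 169% and 68.1% of the Stmn2 value in the 72 h libraries, against 5.60% to 16.2% in the untreated ones. The size of the 72 h difference is therefore poorly fixed.

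Dnm1 read 84.6, 89 and 70.5 without RA, 54.1, 56.8 and 77.4 after 12 h and 24 and 24.3 after 72 h. RA 12 h replicate 3 lay inside the untreated range, whereas both 72 h libraries lay below every other. Means were 81.4 ± 9.67, 62.8 ± 12.7 and 24.1 ± 0.18 (SD, n = 3, 3 and 2). The 12 h difference of -0.38 ± 0.19 SE did not pass (limma adjusted p = 0.357), and its 95% interval, -0.80 to 0.04, includes 0. Within the sides of the axis it was -0.16 and -0.34. At 72 h the log2 difference was -1.71 ± 0.22 SE against untreated and -1.33 ± 0.22 against RA 12 h. Dnm1 overlaps Ciz1, a gene for a nuclear zinc finger protein, on the opposite strand. Ciz1 had means of 231 ± 36.1, 216 ± 38.4 and 242 ± 7.34, and changed by -0.10 at 12 h and 0.08 at 72 h (limma adjusted p = 0.784 and 0.829).

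Ctxn1 values were 118, 124 and 94.8 in untreated cells, 61, 68.5 and 103 at 12 h and 39 and 61 at 72 h. Again RA 12 h replicate 3 lay within the untreated range, and the higher 72 h library equalled the lowest RA 12 h library. The group means were 112 ± 15.4, 77.5 ± 22.4 and 50.0 ± 15.6 (SD, n = 3, 3 and 2). At 12 h the difference of -0.56 ± 0.23 SE (interval -1.05 to -0.07) had a limma adjusted p of 0.233. At 72 h the log2 difference of Ctxn1 from untreated was -1.18 ± 0.25 SE. Without RA 72 h replicate 1 that difference was -0.86, under 2-fold. Within the sides of the axis it was -0.98 and -1.26, and the 12 h difference -0.23 and -0.54. Of the 5 genes, Ctxn1 and Slc1a3 had the smallest 72 h differences.

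Slc1a3 stood at 857, 764 and 709 in untreated cells, 294, 385 and 297 after 12 h of RA, and 342 and 359 after 72 h. Both RA groups lay wholly below the untreated libraries, and the 72 h values fell inside the 12 h range. Means were 777 ± 74.9, 325 ± 51.9 and 350 ± 11.8 (SD, n = 3, 3 and 2). At 12 h Slc1a3 fell by 1.26 on the log2 scale (SE 0.13, interval -1.53 to -0.99, limma adjusted p = 3.25e-05). The 72 h difference from untreated was -1.14 ± 0.14 SE, and RA 72 h differed from RA 12 h by 0.12 ± 0.14. A late fall therefore does not describe Slc1a3, whose lower level was already there at 12 h. Within the sides of the axis its 12 h difference was -1.45 and -1.07.

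The share of the 72 h log2 difference that was already present at 12 h was lowest for Dnm1 and highest for Slc1a3. It was 22.3% for Dnm1, 38.8% for Penk1, 44.3% for Stmn2, 47.3% for Ctxn1 and 110% for Slc1a3. The 3 middle genes have no fixed order: without 1 library the share ran from 37.4% to 40.8% for Penk1, 38.7% to 49.7% for Stmn2 and 34.4% to 66.1% for Ctxn1, and background subtraction put Stmn2 at 35.1%. The 12 h differences of Dnm1 and Ctxn1 did not pass the test. Ranked from the largest fall among the 12673 genes tested, Penk1 was number 8 at 12 h and number 1 at 72 h, and Stmn2 was number 23 and number 5. Slc1a3 ranked 28 at 12 h and 155 at 72 h, whereas Dnm1 ranked 1063 and then 54 and Ctxn1 430 and then 143. The ranks at 72 h restate the choice of genes.

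**Figure D2:**
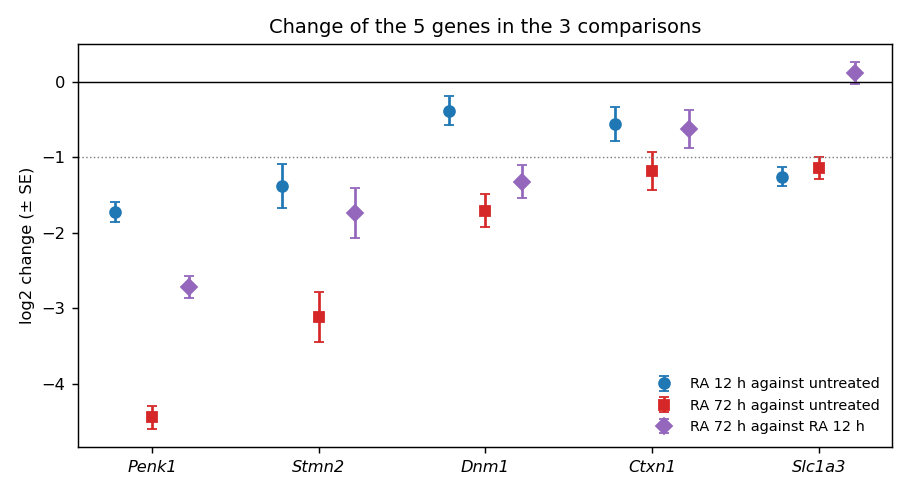
Log2 change (± SE from limma) of each gene in the 3 comparisons, with a line at 0 and a dotted line at a 2-fold fall. Slc1a3 is the only one of the 5 whose difference between 72 h and 12 h of RA lies above 0, at 0.12.

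The pattern of each gene over the 8 libraries was compared with that of every other tested gene by Pearson's r of the log2 values. All points share the same 8 libraries and group steps, so r is given as a description. Penk1 was most like Mllt3 (r = 0.994), 2610027C15Rik (0.989) and Col6a3 (0.988), the last encoding a chain of collagen VI. For Stmn2 the nearest were Rin1 (0.996), Slit2 (0.993) and Nexn (0.993), and for Dnm1 they included Optc (0.993) and Arfip2 (0.989). Ctxn1 followed Copz2 (0.990), Jtb (0.982) and C630028N24Rik (0.98), and Slc1a3 followed AC124353.5 (0.985), Mest (0.985) and Cspg4 (0.977). Between 20 genes (Slc1a3) and 84 genes (Penk1) reached r of at least 0.95 with a member. Among the 5 themselves r ran from 0.558 for Dnm1 and Slc1a3 to 0.97 for Penk1 and Stmn2.

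Relatives in the opioid, stathmin, dynamin and SLC1 families that passed the filter numbered 3, 2, 3 and 6. Of these 14 genes, 0 were called lower by limma in the 3 comparisons, where 0.308%, 1.52% and 0.734% of all genes were, so a count of 0 does not set them apart. In the opioid system, Oprm1, Oprd1 and Ogfr, which encode the mu and delta opioid receptors and the opioid growth factor receptor, were tested and not called, with 0, 0 and 1 of the 3 at an unadjusted p below 0.05 in the 12 h, the 72 h and the 72 h against 12 h comparison. Oprm1 averaged 38.6 ± 18.0, 52.6 ± 10.1 and 51.7 ± 9.46 over untreated, RA 12 h and RA 72 h, and Oprd1 40.1 ± 5.28, 32.2 ± 4.65 and 46.1 ± 1.59. The estimated gene-body background ran from 71.9 reads per Mb in untreated replicate 2 to 150 in RA 72 h replicate 1. Oprm1 read 20.8 in the former and 58.4 in the latter, and the part of such background in its level was not tested. Ogfr averaged 370 ± 73.2, 342 ± 8.93 and 339 ± 35.1. The other opioid precursor genes, Pdyn, Pomc and Pnoc, and the receptor genes Oprk1 and Oprl1 stayed below the filter. Penk1 was the only opioid precursor gene above the filter.

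One stathmin was called higher. Stmn4 read 11.5, 19.3 and 18 in untreated cells, 28.1, 26.9 and 38.6 at 12 h and 101 and 102 at 72 h. Its groups were separate, each above the one before, and it was called higher at 72 h (log2 change 2.60 ± 0.28 SE, limma adjusted p = 3.88e-05) but not at 12 h (0.91 ± 0.25, 0.0569). Stmn1, the widely expressed stathmin, averaged 889 ± 38.0, 838 ± 121 and 1623 ± 199. It was higher at 72 h by 0.86 ± 0.13 (limma adjusted p = 0.000831), short of 2-fold, and differed by -0.09 at 12 h (0.742). Stmn3 stayed near 3 reads and was not tested.

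Dnm2, the ubiquitous dynamin, averaged 509 ± 15.3, 581 ± 92.9 and 553 ± 22.4 over untreated, RA 12 h and RA 72 h. Dnm3 averaged 65.6 ± 19.2, 79.5 ± 5.70 and 77.6 ± 39.8, and Dnm1l, which encodes the dynamin of mitochondrial fission, 446 ± 40.6, 409 ± 26.8 and 378 ± 23.3. At 72 h Dnm2 lay just above and Dnm1l just below the untreated libraries, and the other comparisons of these genes with untreated cells overlapped. None was called in the 3 comparisons (limma adjusted p from 0.281 to 0.877), and 0 had an unadjusted p below 0.05. Ctxn3 stood at 2.46, 2.63 and 1 and was not tested; Ctxn2 is not analysed here.

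Of the 6 other SLC1 transporters, only Slc1a6 was called. This gene encodes the glutamate transporter EAAT4, known from Purkinje cells. It read 403, 404 and 328 untreated, 409, 410 and 395 at 12 h and 869 and 1094 at 72 h. The 12 h libraries lay among or just above the untreated ones, and both 72 h libraries lay above all others. It was called higher at 72 h (1.37 ± 0.14 SE, limma adjusted p = 2.16e-05) and differed by 0.10 ± 0.12 at 12 h (0.714). The neutral amino acid transporter gene Slc1a4 averaged 276 ± 14.4, 237 ± 3.59 and 198 ± 30.7, and its 72 h difference of -0.48 (limma adjusted p = 0.035) was under 2-fold. Slc1a1, Slc1a2, Slc1a5 and Slc1a7 were not called in any comparison, and their log2 differences at 72 h were -0.33, 0.39, -0.25 and 0.88. Of the 6 transporters, 0 had an unadjusted p below 0.05 at 12 h, 4 at 72 h and 2 for 72 h against 12 h. Over all genes tested these shares were 16.3%, 23.9% and 18.9%.

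**Figure D3:**
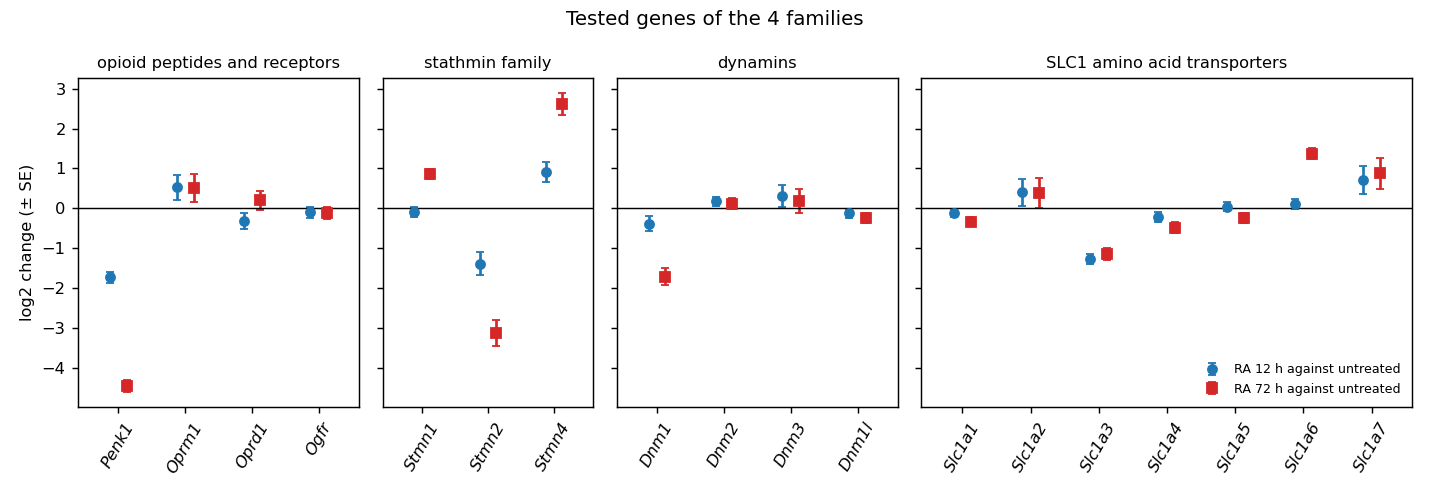
Log2 change (± SE from limma) against untreated cells at 12 h (circles) and 72 h (squares) for the tested genes of the opioid, stathmin, dynamin and SLC1 families. Penk1, Stmn2, Dnm1 and Slc1a3 lie below 0 at 72 h, while Stmn4 (2.60) and Slc1a6 (1.37) lie above it.

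Genes that surround these 5 in their pathways were read list by list, against 3.67% of all genes called either way at 72 h and 16.3%, 23.9% and 18.9% with an unadjusted p below 0.05 at 12 h, at 72 h and for 72 h against 12 h. Of 7 tested genes for prohormone processing, 1 was called: Mme, which encodes neprilysin, a membrane protease that degrades enkephalins. Mme read 389, 404 and 430 untreated, 301, 255 and 300 at 12 h and 132 and 117 at 72 h. Its groups were separate and lower at each step. It was called lower at 72 h (-1.71 ± 0.13 SE, limma adjusted p = 2.69e-06) and, at 12 h, differed by -0.52 (0.0243), under 2-fold. Of 24 other neuropeptide and granin genes 5 were tested and 0 were called by limma in the 3 comparisons, with 3, 2 and 1 at an unadjusted p below 0.05 at 12 h, at 72 h and between them. In the microtubule and axon growth list, 2 of 17 tested genes were called lower at 72 h, against 1.52% of all genes, and 0 were called at 12 h (5 at an unadjusted p below 0.05). Gap43, which encodes a growth cone protein, averaged 68.6 ± 11.2, 42.8 ± 2.44 and 23.2 ± 0.62 (72 h change -1.51 ± 0.22 SE, limma adjusted p = 0.000453). Mtap1a, for a microtubule-associated protein, averaged 152 ± 17.6, 112 ± 15.4 and 74.3 ± 4.33 (-1.02 ± 0.17, 0.00151). The Mtap1a change came below 2-fold without untreated replicate 2 (-0.93), without RA 72 h replicate 1 (-0.96) or with a pseudocount of 10 (-0.94).

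Of 27 tested genes for clathrin-coated vesicle formation, where dynamin 1 acts, 1 was called and it was higher. Epn2, which encodes the adaptor epsin 2, averaged 130 ± 25.4, 314 ± 65.8 and 356 ± 44.1. Its change was 1.26 ± 0.17 SE at 12 h (limma adjusted p = 0.000616) and 1.45 ± 0.20 at 72 h (0.000262). None of the 18 tested genes for glutamate and glutamine handling was called in the 3 comparisons. At 72 h 3 of them were higher and 3 lower at a limma adjusted p below 0.05 but under 2-fold (6.08% and 5.41% of all genes passed that p), and 9 had an unadjusted p below 0.05. The 14 tested genes of the RE1-silencing complex, which represses neuronal genes in other cells, and the 14 tested CREB and AP-1 factor genes gave 0 calls by limma in the 3 comparisons. At 72 h 5 and 2 of them had an unadjusted p below 0.05. Their median log2 changes at 72 h were -0.19 and -0.01, beside -0.02 over all genes tested. These lists share genes with each other and were read by their counts.

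**Figure D4:**
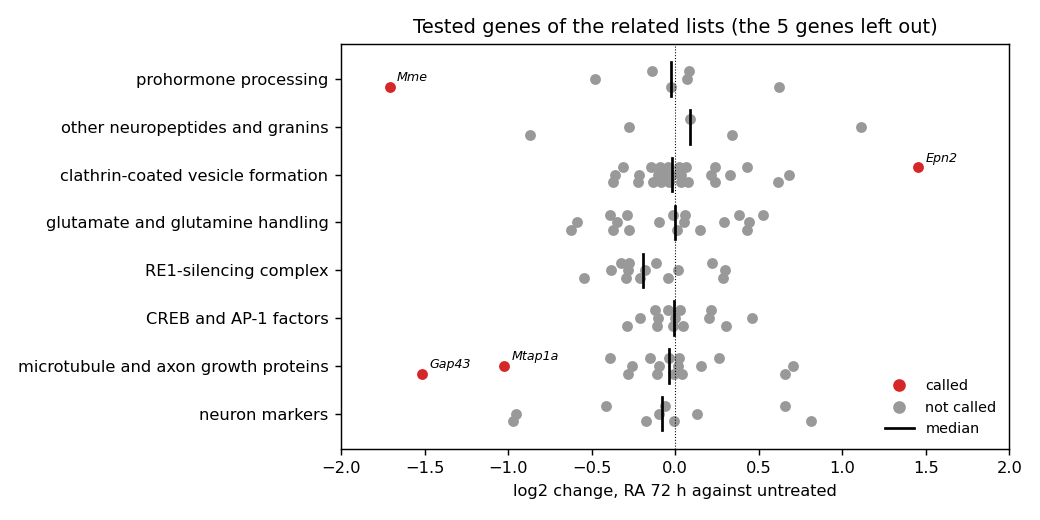
Log2 change at 72 h of RA against untreated cells for the tested genes of 8 related lists, with the 5 members left out. Each point is a gene, red where called, and the black bar is the list's median; the medians lie near 0 and the called genes are Mme, Gap43, Mtap1a and Epn2.

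The nervous tissue character of these genes was checked against markers. In bulk RNA, fewer cells of a type and less RNA per cell cannot be told apart. Several fibroblast markers were high: Vim, Col1a1, Fn1 and Col1a2 averaged 105234, 47248, 42307 and 27243 in untreated cells, although Thy1, Dcn, Lum and Fap averaged below 10 there. Of 17 neuron markers in the table, 10 were tested and 0 were called by limma in the 3 comparisons (4 at an unadjusted p below 0.05 at 72 h). At a limma adjusted p below 0.05, 2 were lower and 1 was higher at 72 h, all under 2-fold. Syn1 averaged 281 ± 59.4, 204 ± 17.8 and 143 ± 10.1 (72 h difference -0.96, limma adjusted p = 0.00232), and Eno2, named after its values were seen, 56.3 ± 10.4, 33.1 ± 4.26 and 28.6 ± 8.93 (-0.97, 0.0271). For both, the RA libraries lay below the untreated ones at 12 h and at 72 h (background 10.6% and 19.4%). At 12 h the RA libraries of Penk1, Stmn2 and Slc1a3 also lay below the untreated ones, while those of Dnm1 and Ctxn1 overlapped with them. At 72 h all 5 genes lay below, which restates how they were picked. The share of all genes below untreated at both times was not counted. Mtap2 averaged 296 ± 31.9, 346 ± 23.5 and 466 ± 7.78 (0.66, 0.00437). Slc17a7, also named after its values were seen, averaged 38.3 ± 17.2, 43.3 ± 3.12 and 63.1 ± 4.15 (0.81, limma adjusted p = 0.146). Its 72 h libraries lay above the untreated ones. The summed level of the 17 markers was 2634 to 3000 in untreated, 2760 to 2903 in RA 12 h and 2659 to 2741 in RA 72 h libraries, so the groups overlapped. Most of that sum was Syt1, at 1965 in untreated cells, and 7 of the 17 markers (Snap25, Syp, Nefl, Nefh, Elavl3, Dcx and Slc17a6) averaged below 10 in every group. Of 10 astroglia markers besides Slc1a3, 4 were tested and 0 were called by limma (1 at an unadjusted p below 0.05 at 72 h). Their sum was 1939 to 3175 in untreated, 2900 to 2968 in RA 12 h and 3972 to 5288 in RA 72 h libraries, so only the RA 72 h sums lay above the other groups. Gja1, which fibroblasts also express, made up most of it, and Gfap, Aqp4, Fabp7, S100b, Aldoc and Sox9 averaged below 10 in every group. Gja1 was higher at 72 h by 0.89 (limma adjusted p = 0.00620) and by 0.68 against RA 12 h (0.0485), both under 2-fold. Among 9 tested fibroblast markers, Pdgfra was called higher at 12 h (1.49, limma adjusted p = 2.67e-06) and Col3a1 lower at 72 h (-1.43, 8.25e-06). The summed fibroblast markers were 236502 to 257152, 237871 to 248558 and 216597 to 222441 over the 3 groups, so only the RA 72 h sums lay below the other groups. At 72 h 5 of the 9 had an unadjusted limma p below 0.05, beside 23.9% of all genes tested. The part of these markers in the falls of the 5 genes was not tested.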

How the data were processed

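Expression was measured in 8 libraries, and the authors deposited 1 table of normalised reads per Ensembl gene (22200 genes, and 1 line without a gene that was left out). These values are on a scale of their own, not counts: the sorted columns deposited by the authors are identical, so the libraries had been quantile normalised. Library depth, counting intervals and detection limits cannot be had from them. Per the labels, DpnII tags were sequenced, whereas the study's methods describe fragmented RNA aligned to mm9 with Tophat, counted with Cufflinks and normalised with DESeq. Those methods also give another late time than the 72 h of the labels, and the series text counts 7 samples where 8 are listed; the labels and the table were followed. The authors' averages and log2 ratio columns were not used.

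Values were taken as log2(value + 1), so a fold change of a low gene is understated. The 12673 genes averaging 10 or more were tested in 1 fit of the 3 groups with limma 3.58.1 (R 4.3.3), with a variance trend, two-sided, and Benjamini-Hochberg adjustment over all genes tested. A gene was called at an adjusted p below 0.05 and at least 2-fold. The script was tested on simulated data. The groups come from the treatment and time labels.

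The 5 members, the gene lists and the tests were chosen with earlier results of these data known. Named are the members, all genes of the opioid, stathmin, dynamin, cortexin and SLC1 lists, at most 6 called genes of each other list, the 3 tested genes most like each member by Pearson's r, and up to 4 of the highest genes of each marker list. One gene that this rule names is not reported here. Other genes named were chosen after their values were seen. The gene-body background was the 25th percentile of reads per span over 943 genes of at least 200000 bases, scaled to each gene's span. Promoters were taken from RefSeq (GRCm38.p6). Alternatives were another pseudocount, no filter, leaving out each library, a replicate block, the within-group axis as a covariate, no variance trend, background subtraction, only the groups compared, and no fold minimum. Values within each side of the axis were added after seeing the data.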

Additional observations from a re-analysis of the deposited data

Results flagged for a closer look

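The changes at 12 h and 72 h of RA differed by the test of 72 h against 12 h itself, at least 2-fold, for 5 genes of the gene lists that are not members. Over all genes tested, 1.5% were called in that comparison, and the share among the tested list genes was not counted. On the log2 scale these differences were -1.15 for Col3a1 (limma adjusted p = 0.000157), 1.14 for Dhrs3 (0.00249), -1.19 for Mme (0.000172), 1.27 for Slc1a6 (0.000151) and 1.69 for Stmn4 (0.00275). Dhrs3 was on the lists only to check the response to RA. The members, picked on the 72 h libraries, and the genes named for a pattern like theirs were left out of this count.

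In 2 further genes all libraries moved one way at 12 h and the other way at 72 h. Dpysl3, which encodes a dihydropyrimidinase-like axon growth protein, was above untreated at 12 h and below it at 72 h, with a log2 difference of -0.41 between the RA groups (limma adjusted p = 0.0633). Tubb2b, which encodes a beta-tubulin, was below and then above, with 0.49 (0.0604). Neither difference passed the threshold, and the share of all genes with such opposite moves was not counted.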

How the results depend on the processing

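Of the values for members and the counts of calls, 320 under an alternative kept their call, or stayed within 1 SD (untested values) or 1.5 times (counts), 26 moved by more and 5 lost their call. All 5 were for Stmn2 at 12 h: without the filter (-1.38), with gene-body background subtracted (-1.71) and without each of 3 libraries (-1.31 to -1.21), while leaving out any 1 library gave -1.60 to -1.21. Among the 320, leaving out RA 72 h replicate 1 took Ctxn1 to -0.86 and members at least 2-fold lower at 72 h from 5 to 4, and the axis covariate gave Ctxn1 at 12 h a limma adjusted p of 0.0175, still under 2-fold, with p-values that are too small because the axis comes from the same residuals. Leaving out 1 library gave 148 to 322 calls at 12 h, the highest without untreated replicate 3, 356 to 641 at 72 h and 150 to 211 for 72 h against 12 h, beside 180, 465 and 190. Without a fold minimum the counts were 554, 1456 and 740. Members called lower at 12 h went from 3 to 2 in the 5 settings that lose Stmn2. Without 1 library Penk1 ran from -4.59 to -4.29 at 72 h and -2.87 to -2.57 against 12 h. With a pseudocount of 10, the 72 h differences were -4.07 for Penk1, -2.13 for Stmn2 and -1.42 for Dnm1, and against 12 h -2.39, -1.02 and -1.08. Background subtraction gave -4.89 for Stmn2 and -2.0 for Dnm1 at 72 h, and -3.18 and -1.56 against 12 h. Within the sides of the axis (chosen after seeing the data), Dnm1 was -0.16 at 12 h on the first side and -1.63 against 12 h, Slc1a3 -1.45 and -1.07 at 12 h, and Penk1 -4.25 and -4.68 at 72 h and -2.44 and -2.93 against 12 h. The cause of these moves was not tested, beyond fewer libraries or a larger pseudocount. No member changed sign in a called value.

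With a replicate block the calls numbered 174, 430 and 172, 3 members were called lower at 12 h and no member's call changed (Stmn2 limma adjusted p = 0.0297). The 7 same-numbered pairs of libraries had correlations of deviations from -0.474 to 0.42, with 2 over 0.1, so the numbers are not known to pair samples.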

Other observations

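Adcyap1, the gene for the neuropeptide PACAP, did not pass the filter and was chosen here after its values were seen. It read 21.9, 7.25 and 9 in untreated cells, 5.88, 4.88 and 2.38 after 12 h of RA and 3.88 and 3.38 after 72 h. Both RA groups lay below the untreated libraries, as in 10.6% of all tested genes at 12 h and 19.4% at 72 h. All these values are low, and 1 untreated library stood well above the rest. Of the 5 tested neuropeptide and granin genes, 2 lay below 0 at 72 h. The highest change was 1.11, for Scg3 (limma adjusted p = 0.0757).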
